A study of Homo sapiens with 24 samples.

Results

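The day 6 response to TAp63 was compared with the day 6 response to ΔNp63 in TYUC-1, a human cell line from a neuroendocrine carcinoma of the esophagus that grows in suspension. TP63 makes TAp63 and ΔNp63 from alternative promoters. Both proteins share the DNA-binding domain and differ at the N terminus, where only TAp63 has the full transactivation domain. ΔNp63 is the form that basal cells of stratified squamous epithelia, such as the lining of the esophagus, mainly express, and it is known for binding basal keratin genes there. Basal cells make keratins 5 and 14, the suprabasal cells of the esophagus make keratins 4 and 13, and small proline-rich (SPRR) proteins are cross-linked into the envelope of the outer layers.

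The comparison used 12 of the 24 libraries of the series, chosen by line and day from the labels, with 3 libraries per group. The first group is the i-TAp63 line after 6 days of doxycycline at 1 µg/ml, and its day 0 is the same line kept on the vehicle DMSO. The other pair is the i-DNp63 line, which expresses ΔNp63, at day 6 and at its own day 0, made in the same way. The series calls its 3 replicates biological. Whether a line is 1 clone, or a replicate a separate culture, is not in the labels, and p-values cover only the spread among the libraries. A treatment label also names EPZ-6438, which inhibits the EZH2 enzyme, with the same number of days as the induction, while the titles name p63 alone. Whether EPZ-6438 was added is not settled by the labels. If it was, both lines received it for the same time, and its part in each line's own change cannot be told apart from that of the induced protein.

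The tested quantity was the log2 change of the TAp63 line, day 6 against day 0, minus the log2 change of the ΔNp63 line. A positive value means that the gene moved further up, or less far down, in the TAp63 line. Levels are CPM, the counts of a gene scaled to a common library size, on library sizes adjusted by edgeR's TMM method, and log2 values carry a standard error (SE). A gene was called at an adjusted p under 0.05, by edgeR's quasi-likelihood test with Benjamini-Hochberg adjustment over 15132 tested genes and with the replicate number as a block. Introns were counted along with exons and strand was not used, so a gene that overlaps another is uncertain. The 12 libraries held between 6375963 counts (ΔNp63 day 6, replicate 3) and 20977266 counts (TAp63 day 0, replicate 2).

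TP63, the induced gene, had 606, 677 and 659 CPM in the TAp63 line at day 6, against 2.91, 2.85 and 2.95 CPM at its day 0. TP63 had 1020, 822 and 896 CPM in the ΔNp63 line at day 6, against 4.88, 3.92 and 4.1 CPM at day 0. TP63 was high in every day 6 library and low in every day 0 library, as the labels have it. The log2 change was 7.79 in the TAp63 line and 7.74 in the ΔNp63 line, and their difference of 0.05 ± 0.189 (SE, n = 3 libraries per group) was not called (edgeR adjusted p = 0.953). The day 6 levels of the lines did not overlap and were higher in the ΔNp63 line, as were its day 0 levels; the part of this in the differences below was not tested. Counts per gene sum the TP63 isoforms and cannot show which isoform a library holds.

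The line was also set against its own markers. Among neuroendocrine markers, CHGA, the secretory granule protein chromogranin A, reached at most 1.11 CPM over the 12 libraries, and INSM1, a neuroendocrine transcription factor, at most 0.56 CPM. POU2F3, the master regulator of tuft cells, had 142 to 242 CPM. TYUC-1 thus held POU2F3 in every library, with CHGA and INSM1 near 0. Of 12 fibroblast markers, THY1 was at 0 in all 12 libraries, while COL1A1 had 10.6 to 25.9 CPM and PDGFRA 6.64 to 29.5 CPM. Summed, the fibroblast markers ran from 26 to 39.4 CPM in the TAp63 line and from 39.5 to 51.2 CPM in the ΔNp63 line. Of 12 immune cell markers, CD2 was at 0 in all 12 libraries, while LYZ had 466 to 1390 CPM, CSF1R 14.1 to 38.6 CPM, CD14 13.9 to 20.1 CPM and PTPRC 0.78 to 5.06 CPM. The part of these cell types' markers in the results was not tested. The summed erythroid markers ran from 2 to 85.5 CPM and were highest in replicate 1 of each group.

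The lines differed in 399 of 15132 genes (2.64%). Of these, 215 (1.42%) had a difference below 0, that is a larger rise or smaller fall in the ΔNp63 line, and 184 (1.22%) had one above 0. A difference of at least 2-fold was estimated for 62 of the 215 and 69 of the 184. The count rests on the replicate block: without it 25 genes were called, 6 above 0 and 19 below 0, all 25 among the 399. It also fell to 255 without replicate 2 of ΔNp63 day 0, to 260 without replicate 3 of TAp63 day 0 and to 250 without replicate 3 of TAp63 day 6. The change of each line, taken between libraries of the same replicate number, did not overlap between the lines for 209 of the 215 and 175 of the 184 called genes. Over all tested genes it did not overlap for 7.29% in the direction below 0 and 7.92% in the direction above 0.

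Most called genes moved in the ΔNp63 line. By day 6 the TAp63 line changed in 805 genes (5.32%), 559 up (3.69%) and 246 down (1.63%), and the ΔNp63 line in 2534 genes (16.7%), 1384 up (9.15%) and 1150 down (7.6%). Without the replicate block the TAp63 line had 118 calls, 107 up and 11 down, and the ΔNp63 line 676, 482 up and 194 down. The TAp63 count was 325, 354 and 1266 without replicate 3, 2 or 1 of TAp63 day 6, and 391 and 379 without replicate 3 or 2 of TAp63 day 0. The ΔNp63 count was 1576 without replicate 1 of ΔNp63 day 6 and 1689 without replicate 1 of ΔNp63 day 0. Among the 399 genes of the difference, 108 were called in the TAp63 line and 352 in the ΔNp63 line. These 3 comparisons use the same libraries. Of the 215 genes below 0, 177 rose in the ΔNp63 line with no call in the TAp63 line, and 32 rose in both lines. One, HAP1, fell in the TAp63 line and rose in the ΔNp63 line, and 5 were called in neither line. Of the 184 genes above 0, 105 fell in the ΔNp63 line with no call in the TAp63 line and 38 rose in the TAp63 line with no call in the ΔNp63 line. A further 16 fell in both lines, 13 rose in the TAp63 line and fell in the ΔNp63 line, 8 rose in both, and 4 were called in neither.

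Among the called genes, the levels of the lines were mostly further apart at day 6 than at day 0. For 385 of the 399 genes, the mean log2 CPM of the lines differed more at day 6 than at day 0, and for 14 it differed more at day 0. The call itself tests the day 6 gap between the lines minus their day 0 gap, so this count follows largely from the selection. It is a description of the called genes and has no share over all tested genes beside it. Across the 15132 tested genes the log2 changes of the lines had a Pearson correlation of 0.497, which is a description across genes that are not independent. The lines called 348 genes higher and 153 lower in common, and 56 of those 501 genes were also called in the difference.

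**Figure D1:**
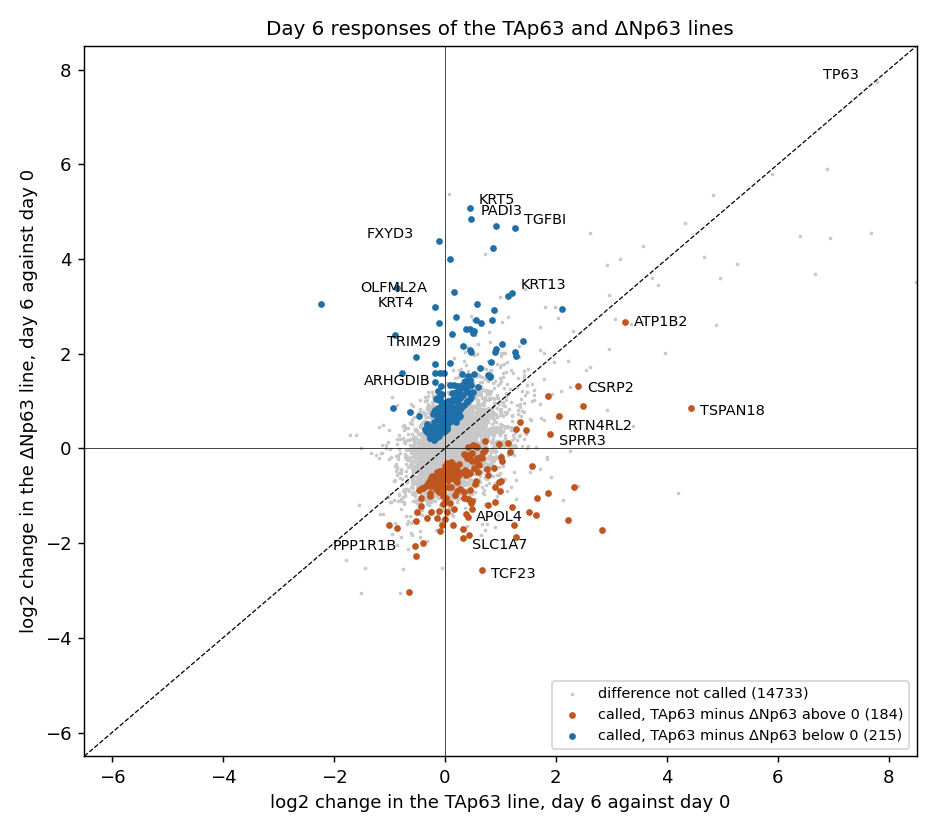
Log2 change of each of the 15132 tested genes at day 6 against day 0, in the TAp63 line (x axis) and the ΔNp63 line (y axis); the dashed line marks equal change. The 215 genes called below 0 (blue) lie above the dashed line, led by KRT5, FXYD3 and PADI3, the 184 called above 0 (orange) lie below it, and TP63 lies on it.

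KRT5 had the most negative difference among genes with at least 5 CPM in 1 group, and 3 other keratins were called below 0 with it. KRT5 (hg38 chr12:52514575-52520394, minus strand), the basal type II keratin, had 0.638, 0.734 and 0.738 CPM in the TAp63 line at day 6, against 0.46, 0.38 and 0.631 CPM at day 0. KRT5 had 26, 19.4 and 21.1 CPM in the ΔNp63 line at day 6, against 0.651, 0.728 and 0.521 CPM at day 0. All 3 day 6 libraries of the ΔNp63 line stood above every other library, and the 9 others stayed under 1 CPM. The log2 difference was -4.63 ± 0.502 (SE, edgeR adjusted p = 1.055e-06), with an uncalled 0.45 in the TAp63 line and a rise of 5.08 in the ΔNp63 line. KRT14, the type I partner of KRT5, had 9 counts in the 12 libraries together and was not tested.

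KRT13 (chr17:41500981-41505612, minus strand), the type I keratin of the suprabasal esophagus, had 29.4, 20.6 and 18.9 CPM in the TAp63 line at day 6, against 12.7, 7.89 and 9.2 CPM at day 0. The ΔNp63 line had 108, 71.8 and 64.6 CPM at day 6, against 10.7, 6.84 and 7.42 CPM at day 0. KRT13 rose by 1.21 in the TAp63 line and 3.29 in the ΔNp63 line on the log2 scale, and the difference was -2.08 ± 0.144 (edgeR adjusted p = 4.149e-10). Its type II partner KRT4 (chr12:52806549-52814116, minus strand) had 0.78, 0.918 and 0.184 CPM in the TAp63 line at day 6, against 0.767, 0.666 and 0.736 CPM at day 0. KRT4 had 6.84, 6.65 and 3.9 CPM in the ΔNp63 line at day 6, against 0.732, 0.84 and 0.586 CPM at day 0. KRT4 rose in the ΔNp63 line and was not called in the TAp63 line, with a difference of -3.16 ± 0.489 (edgeR adjusted p = 0.000193).

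Of 33 basal squamous genes, 23 were tested, 4 were called below 0 and none above 0. The shares over all tested genes were 1.42% below 0 and 1.22% above 0. The median difference was -0.139, against -0.007 over all tested genes. In the TAp63 line 4 of the 23 rose and 1 fell, against 3.69% up and 1.63% down over all tested genes. In the ΔNp63 line 11 rose and 2 fell, against 9.15% up and 7.6% down. Beside KRT5 the 4 were KRT15, a basal keratin, S100A2, a calcium-binding protein of basal keratinocytes, and TRIM29, a tripartite motif protein that is a marker of squamous carcinomas. TRIM29 (chr11:120111286-120138113, minus strand) had 30.1, 33 and 33 CPM in the TAp63 line at day 6, against 32.3, 22.1 and 24.9 CPM at day 0. TRIM29 had 128, 120 and 114 CPM in the ΔNp63 line at day 6, against 24.2, 32.4 and 23.4 CPM at day 0. The day 6 libraries of the ΔNp63 line stood apart from the 9 others, with a difference of -1.85 ± 0.158 (edgeR adjusted p = 1.343e-08). For KRT15 the difference was -1.55 ± 0.19 (edgeR adjusted p = 5.928e-06) and for S100A2 it was -1.71 ± 0.238 (edgeR adjusted p = 4.853e-05).

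KRT5, S100A16, ARHGDIB and ABCA1 were among 7 of 77 named genes with a promoter in the RefSeq table whose 250 bases before the start held a p53-family element, the 10-base sequence that p63 recognises in pairs. These 4 are printed from the group below 0 and LFNG from the group above 0. The other carriers were CALML3-AS1, below 0, and HTR3E, above 0, which are not printed. As a pattern, the p53-family element is its own reverse complement, so a match on either strand is found. A given match need not read the same on both strands. The pattern allows several letters at most positions, was found by letters alone and was not searched for overlap with other motifs. It was in 1510 of 27305 promoters of the same length (5.53%), and in 533 of 11474 promoters of tested genes (4.65%). ARHGDIB and ABCA1 were named after their values were seen, so the 7 of 77 is not a count from a fixed set. Sequences are from GRCh38.p14, 5′ to 3′ on the gene's strand, with the p53-family element in capitals.
KRT5, chr12:52520395-52520644, minus strand: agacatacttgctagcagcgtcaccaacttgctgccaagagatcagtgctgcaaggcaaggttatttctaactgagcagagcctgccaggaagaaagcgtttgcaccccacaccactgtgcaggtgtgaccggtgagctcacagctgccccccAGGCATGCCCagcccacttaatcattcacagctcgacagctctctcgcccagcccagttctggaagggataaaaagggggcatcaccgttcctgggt
S100A16, chr1:153613138-153613387, minus strand: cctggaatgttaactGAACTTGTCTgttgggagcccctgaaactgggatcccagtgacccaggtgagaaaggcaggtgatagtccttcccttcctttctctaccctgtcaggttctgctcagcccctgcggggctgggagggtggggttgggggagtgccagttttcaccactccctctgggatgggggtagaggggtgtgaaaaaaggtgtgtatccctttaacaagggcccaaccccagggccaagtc
ARHGDIB, chr12:14948897-14949146, minus strand: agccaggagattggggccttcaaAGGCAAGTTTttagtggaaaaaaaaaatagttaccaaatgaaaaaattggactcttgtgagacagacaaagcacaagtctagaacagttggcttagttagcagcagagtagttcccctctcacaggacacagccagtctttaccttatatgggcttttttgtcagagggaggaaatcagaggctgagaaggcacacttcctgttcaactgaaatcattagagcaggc
ABCA1, chr9:104928156-104928405, minus strand: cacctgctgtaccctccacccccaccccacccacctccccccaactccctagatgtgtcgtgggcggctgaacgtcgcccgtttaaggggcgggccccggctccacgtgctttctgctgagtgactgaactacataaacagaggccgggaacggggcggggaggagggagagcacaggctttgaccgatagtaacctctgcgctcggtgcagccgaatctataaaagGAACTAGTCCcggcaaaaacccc
LFNG, chr7:2512279-2512528, plus strand: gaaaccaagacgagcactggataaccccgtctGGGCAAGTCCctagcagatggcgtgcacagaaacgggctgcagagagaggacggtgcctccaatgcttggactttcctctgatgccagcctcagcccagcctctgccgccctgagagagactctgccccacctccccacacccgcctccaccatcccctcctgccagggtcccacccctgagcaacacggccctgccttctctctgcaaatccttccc
In KRT5 the p53-family element starts 97 bases before the gene's start, in ABCA1 23, in S100A16 235, in ARHGDIB 227 and in LFNG 218. A match is a string of letters and was not tested for binding.

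ARHGDIB, ABCA1 and S100A16 shared the direction of KRT5, with smaller differences. ARHGDIB, a GDP dissociation inhibitor of small GTPases, had 570, 607 and 508 CPM in the TAp63 line at day 6, against 573, 493 and 445 CPM at day 0. ARHGDIB had 1290, 1280 and 1100 CPM in the ΔNp63 line at day 6, against 518, 534 and 411 CPM at day 0. Every day 6 library of the ΔNp63 line stood above the 9 others, and the line's log2 change was 1.33. The difference was -1.17 ± 0.1 (edgeR adjusted p = 1.343e-08), and for ABCA1, the cholesterol efflux transporter, -1.25 ± 0.174 (edgeR adjusted p = 4.682e-05). S100A16 rose in both lines, by 1.404 in the TAp63 line and 2.26 in the ΔNp63 line. ARHGDIB and ABCA1 were chosen after their values were seen.

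Genes of enzymes and secreted proteins stood beside the keratins. PADI3 (chr1:17249098-17284232, plus strand), which converts arginine to citrulline in structural proteins of hair follicles and epidermis, had 3.97, 3.98 and 5.44 CPM in the TAp63 line at day 6, against 4.91, 2.57 and 3.1 CPM at day 0. PADI3 had 84.7, 81.5 and 95.5 CPM in the ΔNp63 line at day 6, against 2.93, 3.03 and 3.06 CPM at day 0. PADI3 was high in the 3 day 6 libraries of the ΔNp63 line and in no other, and its difference of -4.37 ± 0.239 had the lowest adjusted p of the comparison among the named genes (edgeR adjusted p = 2.8e-12). Of 4 tested peptidylarginine deiminases PADI3 was the 1 called, against 2.64% called over all tested genes. A microRNA gene lies within PADI3.

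FXYD3 (chr19:35115823-35124324, plus strand), a small membrane regulator of the sodium pump, had 1.21, 2.33 and 2.4 CPM in the TAp63 line at day 6, against 3.37, 1.71 and 2.1 CPM at day 0. FXYD3 had 33.3, 38.5 and 34.5 CPM in the ΔNp63 line at day 6, against 1.14, 2.24 and 1.63 CPM at day 0. It was not called in the TAp63 line, rose by 4.37 in the ΔNp63 line, and the difference was -4.47 ± 0.342 (edgeR adjusted p = 2.011e-09). Within FXYD3 lies a microRNA gene. Among 8 tested genes of sodium and proton pumps and FXYD proteins, the other called members were above 0. The difference was called above 0 for 1.22% and below 0 for 1.42% over all tested genes. ATP12A, the non-gastric proton pump, had an uncalled -0.09 in the TAp63 line and fell by 1.74 in the ΔNp63 line, and ATP1B2, a sodium pump subunit, rose by 3.25 in the TAp63 line and 2.67 in the ΔNp63 line. ATP1B2 kept its call in 5 of 12 fits that each left out 1 library, with the highest edgeR adjusted p of 0.243 without replicate 3 of TAp63 day 0.

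TGFBI (chr5:136028988-136063818, plus strand), a secreted protein of the extracellular matrix, had 3.47, 4.1 and 4.52 CPM in the TAp63 line at day 6, against 1.69, 1.57 and 1.89 CPM at day 0. TGFBI had 41.1, 40 and 48.4 CPM in the ΔNp63 line at day 6, against 1.14, 1.68 and 2.21 CPM at day 0. TGFBI rose by 1.26 in the TAp63 line and 4.66 in the ΔNp63 line, and the difference was -3.40 ± 0.269 (edgeR adjusted p = 3.499e-09). Of 19 tested extracellular matrix and mesenchymal genes, 3 were called below 0 and 0 above 0, the median being -0.134. Over all tested genes 1.42% were called below 0 and 1.22% above 0, with a median of -0.007. In the TAp63 line 4 of the 19 rose and 0 fell, against 3.69% up and 1.63% down over all tested genes. In the ΔNp63 line 7 rose and 2 fell, against 9.15% up and 7.6% down. LOX, which cross-links collagen, rose in the ΔNp63 line and was not called in the TAp63 line, and FN1, fibronectin, rose in both lines. The differences were -1.6 ± 0.27 for LOX (edgeR adjusted p = 0.0005737) and -0.67 ± 0.131 for FN1 (edgeR adjusted p = 0.002745).

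The 15 most negative genes with at least 5 CPM in 1 group also held LIPF, LIMS2, OLFML2A, CACNA1H, TNS4, GSTA1, ART5, ST6GALNAC2 and CALML3-AS1. Their differences ran from -3.77 for LIPF to -1.97 for CALML3-AS1, and each rose in the ΔNp63 line. ART5, an ADP-ribosyltransferase, was the only one of these 9 called in the TAp63 line as well, with a rise of 0.89 there and 2.93 in the ΔNp63 line. LIPF, gastric lipase, had 0.425, 0.551 and 0.645 CPM in the TAp63 line at day 6, against 0.153, 0.0951 and 0.579 CPM at day 0, and 4.23, 7.08 and 5.77 CPM in the ΔNp63 line at day 6, against 0.325, 0.168 and 0.195 CPM at day 0. The call for LIPF (edgeR adjusted p = 0.004276) was lost without replicate 3 of TAp63 day 0 (difference -2.37, edgeR adjusted p = 0.5051). GSTA1, a glutathione transferase with near-identical copies, kept its call in 2 of the 12 fits that each left out 1 library. LIMS2 overlaps GPR17, CACNA1H overlaps TPSG1 and CALML3-AS1 overlaps CALML3, and these 3 are uncertain.

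**Figure D2:**
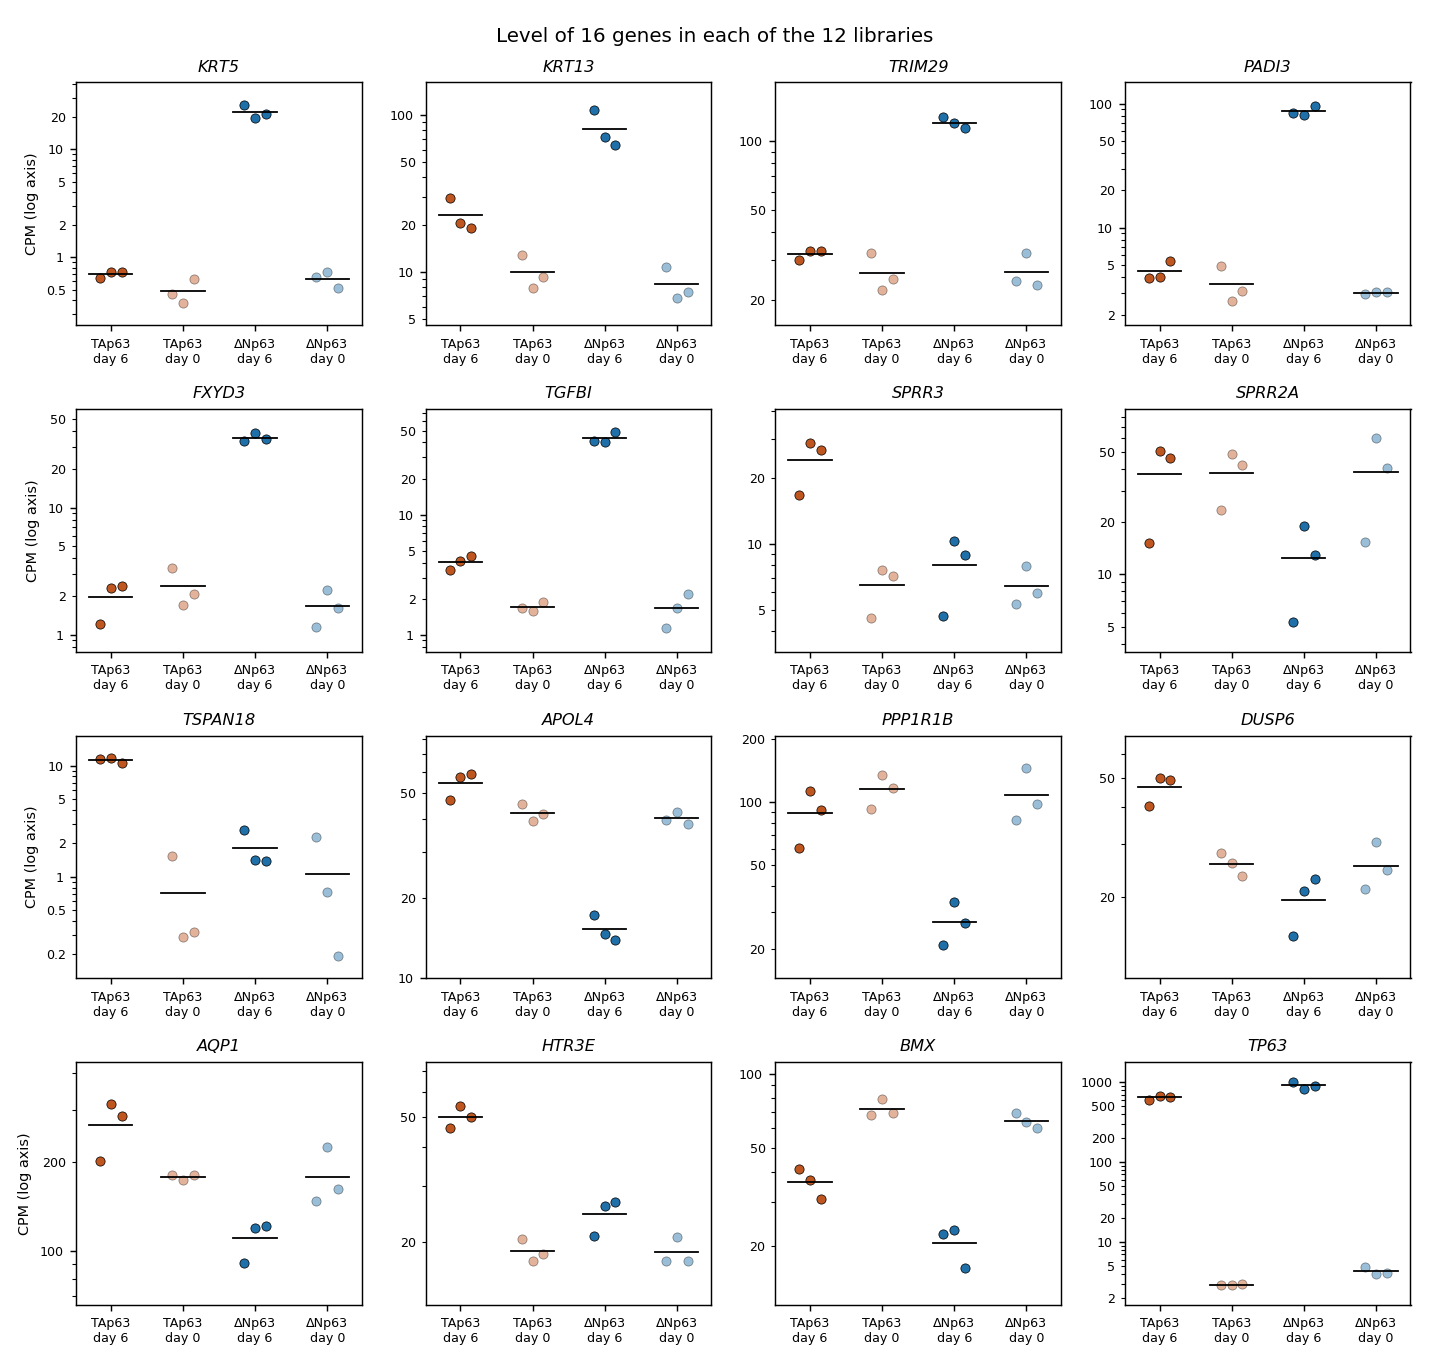
Level of 16 genes in CPM (log axis) in the 3 libraries of TAp63 day 6, TAp63 day 0, ΔNp63 day 6 and ΔNp63 day 0; each point is 1 library and each bar the mean of 3. KRT5, PADI3, FXYD3, TGFBI and TRIM29 are highest in all 3 libraries of ΔNp63 day 6, PPP1R1B is lowest there (20.8 to 33.5 CPM), TSPAN18 is highest in TAp63 day 6 (10.6 to 11.7 CPM), and TP63 is high at day 6 in both lines.

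The SPRR genes went the other way from the keratins. Of 46 suprabasal and cornified squamous genes, 23 were tested; 4 were called above 0, all SPRR genes, and 2 below 0, KRT13 and KRT4. The median difference was 0.00332, against -0.007 over all tested genes. In the TAp63 line 9 of the 23 rose and none fell, against 3.69% up and 1.63% down over all tested genes. In the ΔNp63 line 11 rose and 3 fell, against 9.15% up and 7.6% down. The difference was called above 0 for 1.22% and below 0 for 1.42% of all tested genes. SPRR3 (chr1:153001747-153003856, plus strand), the SPRR protein of mucosal epithelia such as the esophagus, had 16.6, 28.8 and 26.6 CPM in the TAp63 line at day 6, against 4.6, 7.61 and 7.15 CPM at day 0. SPRR3 had 4.69, 10.3 and 8.89 CPM in the ΔNp63 line at day 6, against 5.29, 7.9 and 5.99 CPM at day 0. SPRR3 rose in the TAp63 line by 1.90, was not called in the ΔNp63 line (0.30), and the difference was 1.599 ± 0.193 (edgeR adjusted p = 5.093e-06).

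SPRR2A (chr1:153056120-153057512, minus strand) had 15.2, 50.9 and 46.5 CPM in the TAp63 line at day 6, against 23.3, 49.2 and 42.1 CPM at day 0. SPRR2A had 5.31, 19 and 12.9 CPM in the ΔNp63 line at day 6, against 15.3, 60.3 and 40.8 CPM at day 0. Replicate 1 was the lowest of its group each time, so the groups overlap while the changes within a replicate number do not. SPRR2A fell by 1.61 in the ΔNp63 line and the difference was 1.55 ± 0.174 (edgeR adjusted p = 1.627e-06). SPRR1B had a difference of 1.16. SPRR2D, under 1.1 CPM in every library, had one of 3.15 that lost its call without replicate 2 of ΔNp63 day 0 (edgeR adjusted p = 0.06271) or of ΔNp63 day 6 (edgeR adjusted p = 0.05065). SPRR2A and SPRR2D have near-identical copies and are uncertain.

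S100 proteins, several of which are made in squamous epithelia, split as well. Of 13 tested, S100A2, S100A16 and S100A10 were called below 0 and S100A4 and S100P above 0, with a median of -0.127. Over all tested genes 1.42% were called below 0 and 1.22% above 0, with a median of -0.007. In the TAp63 line 7 of the 13 rose and 0 fell, against 3.69% up and 1.63% down over all tested genes. In the ΔNp63 line 9 rose and 2 fell, against 9.15% up and 7.6% down. S100A10 rose in both lines, by 1.26 in the TAp63 line and 2.03 in the ΔNp63 line, and lost its call without replicate 3 of TAp63 day 0 (edgeR adjusted p = 0.06296). S100P fell by 0.92 in the ΔNp63 line and was not called in the TAp63 line. S100A4 overlaps LOC101928034 and kept its call in 5 of 12 single-library fits. Of 8 tested kallikreins and their inhibitors, KLK14, a protease of the outer epidermis, was the 1 called, rising by 0.60 in the TAp63 line and falling by 0.50 in the ΔNp63 line.

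The largest difference above 0 among genes with at least 5 CPM in 1 group was that of TSPAN18 (chr11:44726962-44932423, plus strand), a tetraspanin. It had 11.4, 11.7 and 10.6 CPM in the TAp63 line at day 6, against 1.53, 0.285 and 0.316 CPM at day 0. TSPAN18 had 2.61, 1.42 and 1.4 CPM in the ΔNp63 line at day 6, against 2.28, 0.728 and 0.195 CPM at day 0. The 3 day 6 libraries of the TAp63 line stood above the 9 others, and the difference was 3.57 ± 0.607 (edgeR adjusted p = 0.0006144). TSPAN18 overlaps TP53I11, a p53-inducible gene. Fragments in the stretch that the 2 genes share count for neither, so the level of TSPAN18 is uncertain.

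TCF23, PPP1R1B, SLC1A7 and APOL4 differed mainly through a fall in the ΔNp63 line. PPP1R1B (chr17:39626952-39636624, plus strand), the phosphatase inhibitor DARPP-32, had 60.8, 113 and 91.6 CPM in the TAp63 line at day 6, against 93.1, 135 and 117 CPM at day 0. PPP1R1B had 20.8, 33.5 and 26.7 CPM in the ΔNp63 line at day 6, against 82.1, 145 and 98.6 CPM at day 0. PPP1R1B fell by 0.40 in the TAp63 line and fell by 1.998 in the ΔNp63 line, and the difference was 1.602 ± 0.118 (edgeR adjusted p = 1.064e-09). APOL4 (chr22:36189128-36204833, minus strand), an apolipoprotein L, had 46.9, 57.5 and 59 CPM in the TAp63 line at day 6, against 45.4, 39 and 41.5 CPM at day 0. APOL4 had 17.2, 14.6 and 13.9 CPM in the ΔNp63 line at day 6, against 39.5, 42.4 and 38.2 CPM at day 0. APOL4 rose by 0.39 in the TAp63 line and fell by 1.38 in the ΔNp63 line, with a difference of 1.77 ± 0.144 (edgeR adjusted p = 5.389e-09).

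TCF23, a basic helix-loop-helix protein, had 5.11, 5.63 and 7.65 CPM in the TAp63 line at day 6, against 3.83, 3.95 and 4.1 CPM at day 0. TCF23 had 0.615, 1.13 and 0.468 CPM in the ΔNp63 line at day 6, against 2.85, 5.99 and 5.93 CPM at day 0. TCF23 was lowest in the 3 day 6 libraries of the ΔNp63 line, with a difference of 3.25 ± 0.348 (edgeR adjusted p = 9.092e-07). SLC1A7, a glutamate transporter, had an uncalled 0.32 in the TAp63 line and fell by 1.89 in the ΔNp63 line, and the difference was 2.21 ± 0.235 (edgeR adjusted p = 9.092e-07). The other genes among the 15 most positive were IGFL2-AS1, CYP2B7P, ATP12A, FAM230I, AQP2, RTN4RL2, FAIM2 and IL23A, between 1.32 and 1.96. RTN4RL2, a Nogo receptor homologue, rose in both lines, by 2.05 in the TAp63 line and 0.69 in the ΔNp63 line. IL23A, a cytokine subunit, fell by 1.46 in the ΔNp63 line and was not called in the TAp63 line. CYP2B7P and FAM230I have close copies and are uncertain, and FAM230I kept its call in 7 of 12 single-library fits, with the highest edgeR adjusted p of 0.1616 without replicate 2 of TAp63 day 6. AQP2 overlaps LOC101927318.

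4 water channels stood on the same side; they were picked after their values were seen. Of 8 tested aquaporin genes, 4 were called above 0 and 0 below 0, against 1.22% above 0 and 1.42% below 0 over all tested genes. AQP1 (chr7:30911694-30925517, plus strand) had 201, 314 and 286 CPM in the TAp63 line at day 6, against 180, 174 and 180 CPM at day 0. AQP1 had 90.6, 119 and 121 CPM in the ΔNp63 line at day 6, against 147, 225 and 161 CPM at day 0. AQP1 rose by 0.57 in the TAp63 line and fell by 0.69 in the ΔNp63 line, and AQP5 rose by 0.58 in the TAp63 line and fell by 0.28 in the ΔNp63 line. AQP3 rose by 0.57 in the TAp63 line with an uncalled -0.21 in the ΔNp63 line, and AQP2 had an uncalled 0.04 in the TAp63 line and fell by 1.33 in the ΔNp63 line. The differences were 1.26 ± 0.14 for AQP1, 0.86 ± 0.129 for AQP5, 0.78 ± 0.135 for AQP3 and 1.37 ± 0.248 for AQP2 (edgeR adjusted p = 1.582e-06, 0.0001297, 0.0006926 and 0.001335). AQP4, AQP6, AQP7 and AQP11 were not called. AQP2, AQP5 and AQP6 are neighbours on chromosome 12, and AQP2 and AQP5 both overlap LOC101927318.

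Genes called in both lines in opposite directions were few, 14 in all: PEX5L, KLK14, FAIM2, HAP1, AQP5, SLC25A45, APOL4, DUSP6, TCF23, LEMD1, CYP2B7P, TNFRSF1A, PRSS33 and AQP1. HAP1 alone of the 14 fell by 0.35 in the TAp63 line and rose by 0.42 in the ΔNp63 line. TNFRSF1A, the TNF receptor, had 4.18, 4.59 and 4.06 CPM in the TAp63 line at day 6, against 2.15, 1.81 and 1.53 CPM at day 0, and 1.69, 0.708 and 0.468 CPM in the ΔNp63 line at day 6, against 3.82, 1.74 and 1.82 CPM at day 0. The level was higher at day 6 than at day 0 in each replicate number of the TAp63 line and lower in each of the ΔNp63 line.

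Calls among tuft cell genes were all above 0. Tuft cells are chemosensory epithelial cells specified by POU2F3. Of 28 listed genes, 22 were tested, 6 were called above 0 and 0 below 0, with a median of 0.136 against -0.007 over all tested genes. In the TAp63 line 2 of the 22 rose and 7 fell, and in the ΔNp63 line 5 rose and 13 fell. Of all tested genes 1.22% were called above 0 and 1.42% below 0. The shares over all tested genes were 3.69% up and 1.63% down in the TAp63 line, and 9.15% up and 7.6% down in the ΔNp63 line. BMX (chrX:15500807-15556519, plus strand), a Tec-family kinase, had 41.1, 37 and 30.9 CPM in the TAp63 line at day 6, against 67.9, 79.2 and 69.5 CPM at day 0. BMX had 22.4, 23.1 and 16.2 CPM in the ΔNp63 line at day 6, against 69.1, 63.6 and 60.1 CPM at day 0. BMX fell in both lines, and further in the ΔNp63 line, with a difference of 0.62 ± 0.13 (edgeR adjusted p = 0.006168). SH2D6, an SH2 domain protein, fell in the ΔNp63 line.

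HTR3E (chr3:184097064-184106995, plus strand), a serotonin receptor subunit, rose in both lines instead. It had 46, 54.3 and 50.1 CPM in the TAp63 line at day 6, against 20.4, 17.3 and 18.3 CPM at day 0, and 20.8, 25.9 and 26.8 CPM in the ΔNp63 line at day 6, against 17.4, 20.7 and 17.3 CPM at day 0. Its difference was 1.07 ± 0.144 (edgeR adjusted p = 3.022e-05), and it overlaps HTR3E-AS1. PTGS1, cyclooxygenase 1, rose by 0.53 in the TAp63 line with an uncalled -0.42 in the ΔNp63 line. POU2F3 itself fell in both lines, by 0.26 in the TAp63 line and 0.30 in the ΔNp63 line, and its difference of 0.04 ± 0.101 was not called (edgeR adjusted p = 0.9322). SH2D6 kept its call in 9 of 12 single-library fits, with a highest edgeR adjusted p of 0.0867 without replicate 3 of TAp63 day 6. PTGS1 kept its call in 7 of 12, with a highest edgeR adjusted p of 0.07605 without replicate 2 of TAp63 day 0.

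3 genes of ERK feedback were called above 0. Of 14 MAPK feedback genes, which are switched on by ERK signalling and restrain it, 3 were called above 0 and 0 below 0, with a median of 0.213. Of all tested genes 1.22% were called above 0 and 1.42% below 0. DUSP6 (chr12:89347237-89352501, minus strand), an ERK phosphatase, had 40.3, 50 and 49.1 CPM in the TAp63 line at day 6, against 28.1, 26 and 23.4 CPM at day 0. DUSP6 had 14.8, 20.9 and 22.9 CPM in the ΔNp63 line at day 6, against 21.3, 30.4 and 24.5 CPM at day 0. DUSP6 rose by 0.88 in the TAp63 line and fell by 0.41 in the ΔNp63 line (difference 1.29 ± 0.158, edgeR adjusted p = 5.928e-06). PHLDA1 and DUSP4 rose in the TAp63 line and were not called in the ΔNp63 line, with differences of 0.88 and 0.54. DUSP4 kept its call in 4 of 12 single-library fits, with the highest edgeR adjusted p of 0.08164 without replicate 3 of TAp63 day 0.

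Of 37 tested genes of the ATF4 stress response, which answers amino acid shortage and protein misfolding, 19 fell in the ΔNp63 line and 0 changed in the TAp63 line (9 of them at an unadjusted edgeR p under 0.05 there, and 0 called by DESeq2). Of all tested genes 7.6% fell in the ΔNp63 line, 5.32% changed in the TAp63 line and 1.22% had a difference called above 0. Among the ATF4 genes the difference was called above 0 for 3 and below 0 for none, and the median was 0.143. The 3 were TRIB3, a pseudokinase, ATF5, a transcription factor that overlaps IL4I1 and NUP62, and NUPR1, a stress-induced nuclear protein. TRIB3 had 200, 203 and 198 CPM in the TAp63 line at day 6, against 219, 206 and 180 CPM at day 0. TRIB3 had 121, 169 and 152 CPM in the ΔNp63 line at day 6, against 214, 240 and 185 CPM at day 0. TRIB3 was lower in each day 6 library of the ΔNp63 line than in any of its day 0 libraries (difference 0.54 ± 0.125, edgeR adjusted p = 0.01347). TRIB3 kept its call in 7 of 12 single-library fits, with the highest edgeR adjusted p of 0.09265 without replicate 1 of ΔNp63 day 6. ATF5 kept its call in 8 of 12, with the highest edgeR adjusted p of 0.07823 without replicate 2 of ΔNp63 day 0.

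Of 32 tested p53 family targets, 2 were called above 0 and 0 below 0, with a median of 0.0814. In the TAp63 line 3 rose and 0 fell, and in the ΔNp63 line 5 rose and 10 fell. Of all tested genes 1.22% were called above 0 and 1.42% below 0. The shares over all tested genes were 3.69% up and 1.63% down in the TAp63 line, and 9.15% up and 7.6% down in the ΔNp63 line. BBC3, the pro-apoptotic protein PUMA, had 13.4, 14.9 and 15.9 CPM in the TAp63 line at day 6, against 20.1, 13.1 and 14.2 CPM at day 0. BBC3 had 8.07, 7.93 and 9.98 CPM in the ΔNp63 line at day 6, against 17.7, 17.8 and 15.2 CPM at day 0. BBC3 fell by 1.00 in the ΔNp63 line and was not called in the TAp63 line (difference 0.96 ± 0.196, edgeR adjusted p = 0.004519). CDKN1A, the cell cycle inhibitor p21, had a difference of -0.06 ± 0.218 that was not called (edgeR adjusted p = 0.9539); it overlaps DINOL.

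Signalling ligands and receptors were called singly. For comparison with the counts below, 2.64% of all tested genes were called in the difference, 1.42% below 0 and 1.22% above 0. Of 28 Notch pathway genes, HEY1, a Notch target, and LFNG, a glycosyltransferase that modifies Notch, were above 0, at 1.19 and 0.52. WNT4 and WNT7B, of 29 Wnt pathway genes, were below 0, at -2.31 and -0.68. LTBP1, which anchors latent TGF-beta in the matrix, and BMPR2, a BMP receptor, were below 0 among 35 genes of the TGF-beta and BMP pathway, at -0.97 and -0.48. Of 29 receptor tyrosine kinases and ligands, FGFR1 was above 0, at 0.57 ± 0.106 (edgeR adjusted p = 0.001844), and FGFR3 below 0, at -0.55 ± 0.094 (edgeR adjusted p = 0.00066). FGFR1 rose in the TAp63 line and FGFR3 in the ΔNp63 line, each without a call in the other line. HEY1, LFNG, WNT4, WNT7B and BMPR2 kept the call in 7, 5, 3, 11 and 5 of 12 single-library fits. Their highest edgeR adjusted p were 0.1154, 0.1047, 0.124, 0.0546 and 0.1953. WNT4 and BMPR2 kept it in 0 of the 3 fits without a replicate number. On library sizes adjusted over all 24 libraries, WNT4 averaged 0.312 CPM at day 0 and 1.66 CPM at day 6 of the ΔNp63 line. In the TAp63 line it averaged 0.667 CPM at day 0 and 0.628 CPM at day 6.

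Lists of adhesion and surface genes held few calls, and over all tested genes 2.64% were called in the difference. LAMB1, a laminin chain, was the 1 called of 22 hemidesmosome, integrin and basement membrane genes (-0.92 ± 0.103, edgeR adjusted p = 1.512e-06). PKP1, plakophilin 1, was the 1 called of 8 desmosome genes (-0.59). SDC1 and GPC1, cell surface proteoglycans, were called at -0.60 and -0.56 of 21 heparan sulfate genes, and GPC1 overlaps LOC100130449. The GPC1 call was kept in 6 of 12 single-library fits (highest edgeR adjusted p = 0.1558) and in 0 of the 3 fits without a replicate number. B2M, beta-2-microglobulin of MHC class I, rose in both lines, by 0.60 in the TAp63 line and 1.29 in the ΔNp63 line (difference -0.70 ± 0.107, edgeR adjusted p = 0.0001785). B2M was the 1 called of 21 tested MHC class I genes, of which 7 rose in each line and 0 fell. The shares of all tested genes that rose were 3.69% in the TAp63 line and 9.15% in the ΔNp63 line.

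Of 25 tested neuroendocrine genes, SCGN, secretagogin, and CHGB, chromogranin B, were called below 0 and CPE, carboxypeptidase E, above 0. Over all tested genes the shares were 1.42% below 0 and 1.22% above 0. CHGB had 11.7, 17.6 and 17 CPM in the TAp63 line at day 6, against 19.3, 18.4 and 21.7 CPM at day 0. CHGB had 24.8, 28.5 and 25.1 CPM in the ΔNp63 line at day 6, against 16.7, 24.3 and 20.2 CPM at day 0. CHGB rose in the ΔNp63 line and was not called in the TAp63 line (difference -0.72 ± 0.163, edgeR adjusted p = 0.01048), and its call was lost without replicate 1 of ΔNp63 day 6 (edgeR adjusted p = 0.06888) or replicate 3 of TAp63 day 0 (edgeR adjusted p = 0.06744). SCGN kept its call in 7 and CPE in 4 of 12 single-library fits, with highest edgeR adjusted p of 0.1082 for SCGN and 0.1662 for CPE. Differences were not called for NEUROD1, a neuroendocrine transcription factor (0.05 ± 0.332, edgeR adjusted p = 0.9745), or for SYP, synaptophysin, which overlaps SYP-AS1 (-0.69 ± 0.28, edgeR adjusted p = 0.2491).

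Single members were called in several other lists, beside 2.64% of all tested genes called in the difference. LYZ, lysozyme, was called above 0 at 0.60 ± 0.122 among 5 tested immune cell markers (edgeR adjusted p = 0.004074). It had 841, 1250 and 1100 CPM in the TAp63 line at day 6, against 1050, 1110 and 1390 CPM at day 0, and 466, 590 and 638 CPM in the ΔNp63 line at day 6, against 883, 892 and 1070 CPM at day 0. LYZ made up most of the summed immune markers, which ran from 521 to 1430 CPM. CSF1R, CD14 and PTPRC were present in every library, and CD2 was at 0 in every library. EGR1, an immediate early factor, was called at -0.81 among 20 immediate early genes, and its day 0 levels already differed, at 21.3, 29.1 and 30.5 CPM in the TAp63 line against 11.5, 11 and 9.05 CPM in the ΔNp63 line. At day 6 EGR1 had 42.1, 39.4 and 28.7 CPM in the TAp63 line and 27.5, 21.1 and 24.6 CPM in the ΔNp63 line. EGR1 kept its call in 8 of 12 single-library fits (highest edgeR adjusted p = 0.1088, without replicate 1 of ΔNp63 day 6). Of 33 genes of sterol and fatty acid synthesis, ELOVL6, SC5D and STARD4 were below 0, between -0.51 and -0.48, and 27 of the 33 estimates were below 0, against 7826 of 15132 over all tested genes. Called below 0 were 1.42% of all tested genes. The calls of ELOVL6, SC5D and STARD4 held in 4, 5 and 2 of 12 single-library fits. They held in 1, 1 and 0 of the 3 fits without a replicate number.

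GRHL1, a grainyhead factor of epithelia, was called at -0.72 among 31 epithelial transcription factors, and CLDN4, a tight junction claudin, at 0.70 among 26 simple epithelial genes, a list that holds GRHL1 too. Over all tested genes the difference was called for 2.64%. A single call in the lists of 31, 32 and 33 genes in this paragraph is near that share. ALDH3A1, an aldehyde dehydrogenase, was called at -0.78 of 33 NRF2 and antioxidant genes. PPP1R13B, a p53-binding protein that overlaps ZFYVE21, was called at -0.48 of 17 p53 family genes and regulators. ISG20, an exonuclease, was called at 0.67 of 20 interferon response genes, and SLC2A3, a glucose transporter, at 1.296 of 32 hypoxia and glycolysis genes. The SLC2A3 call was kept in 7 of 12 single-library fits (highest edgeR adjusted p = 0.1666). Of 17 cytokine and NF-kB genes, CCL28, an epithelial chemokine, and IL23A were called above 0. APOL4 was the 1 called of 5 tested apolipoprotein L genes and LIPF the 1 called of 8 columnar and gastric genes.

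9 lists had 0 members called in the difference by edgeR. They were the HOX clusters (25 tested), G1/S and DNA replication (38), G2/M and mitosis (41), PRC2 and H3K27 demethylases (16), heat shock and unfolded protein (27), ribosomal proteins (42), and the fibroblast (5), endothelial (4) and erythroid (9) markers. At an unadjusted edgeR p under 0.05 they held 3 HOX, 2 G1/S, 2 mitotic, 2 PRC2, 4 heat shock, 2 ribosomal and 3 erythroid genes and 0 fibroblast or endothelial markers. DESeq2 called 1 heat shock gene and 0 in the other 8 lists. The 9 erythroid markers had a median difference of 1.08, with 0 of 9 below 0; in the TAp63 line 0 were called, with a median change of 0.02, and in the ΔNp63 line 5 fell, with a median of -0.98. The 4 endothelial markers had a median difference of -0.35, with 4 of 4 below 0. These medians stand beside -0.007 over all tested genes, and the part of such markers in the other differences was not tested. Of the 41 mitotic genes, 14 fell in the TAp63 line and 26 in the ΔNp63 line, with a median difference of 0.011. The shares of all tested genes that fell were 1.63% in the TAp63 line and 7.6% in the ΔNp63 line. EZH2, the methyltransferase of PRC2, had 196, 155 and 148 CPM in the TAp63 line at day 6, against 204, 192 and 189 CPM at day 0, and 183, 162 and 154 CPM in the ΔNp63 line at day 6, against 196, 160 and 181 CPM at day 0. The EZH2 groups overlap and its difference was -0.14 ± 0.101 (edgeR adjusted p = 0.6301). Over all tested genes the median SE of a difference was 0.139, so a difference of that size lies within the error of a typical gene. SOX2, a squamous lineage factor, had 0 counts in the 12 libraries.

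**Figure D3:**
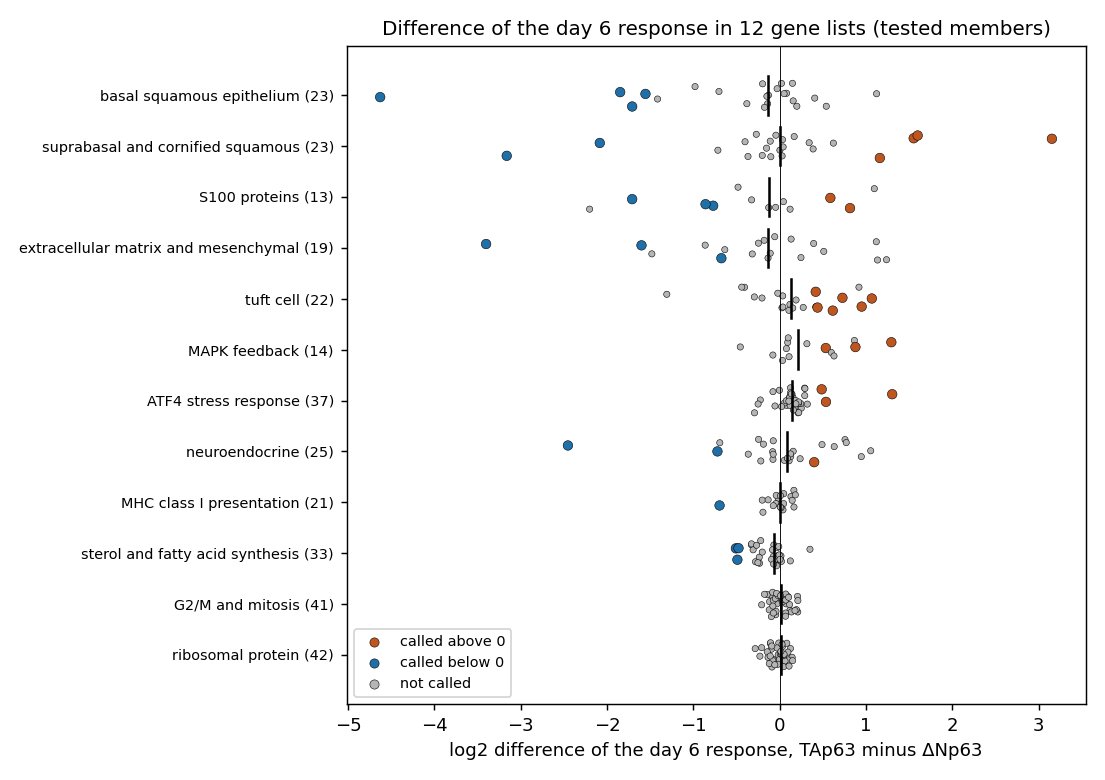
Log2 difference of the day 6 response, TAp63 minus ΔNp63 (x axis), of each tested member of 12 gene lists (rows, number tested in brackets); vertical bars are list medians, orange and blue points are called. Keratins lie far left in both squamous lists and 4 SPRR genes lie right, the 6 called tuft cell genes lie right, and the ribosomal and mitotic genes lie close to 0 with none called.

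A day 3 difference was fitted in the same way on the day 3 and day 0 libraries, which share the day 0 libraries with day 6. It called 222 of 15372 genes (1.44%), 74 above 0 (0.481%) and 148 below 0 (0.963%). Without the block it called 3. It called 79 without replicate 3 of TAp63 day 0, 121 and 110 without replicate 2 or 3 of TAp63 day 3, and 466 and 139 without replicate 1 or 3 of ΔNp63 day 3. Without replicate 1, 2 or 3 of ΔNp63 day 0 it called 122, 96 and 141. Of the 399 genes called at day 6, 397 were tested at day 3 and 119 were called there, none in the opposite direction. At day 3 the difference was -3.50 for KRT5 (edgeR adjusted p = 0.001748), -3.995 for PADI3 (edgeR adjusted p = 8.522e-08) and -1.50 for KRT13 (edgeR adjusted p = 6.267e-06). KRT4 was not called at day 3 (-1.23, edgeR adjusted p = 0.2603). SPRR3 and PPP1R1B were called at day 3, at 1.10 and 1.07, and TSPAN18 was not (2.46, edgeR adjusted p = 0.05273).

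The course of the changes differed between genes of the ΔNp63 line, without a test of the timing itself. On library sizes adjusted over all 24 libraries, KRT5 averaged 0.642 ± 0.109 CPM at day 0, 7.61 ± 0.53 CPM at day 3 and 22.3 ± 3.63 CPM at day 6 in the ΔNp63 line (SD, n = 3). PADI3 averaged 3.04 ± 0.0643, 94.6 ± 5.6 and 87.8 ± 6.8 CPM on the same days. PADI3 was thus near its day 6 level by day 3, while KRT5 was below it. In the TAp63 line SPRR3 averaged 6.52 ± 1.67, 12 ± 3.87 and 24.3 ± 6.63 CPM at days 0, 3 and 6, and TSPAN18 averaged 0.716 ± 0.714, 5.12 ± 0.673 and 11.4 ± 0.709 CPM. PPP1R1B averaged 110 ± 33.1, 37.9 ± 5.98 and 27.2 ± 6.37 CPM in the ΔNp63 line, and APOL4 averaged 40.6 ± 2.34, 32.9 ± 4.66 and 15.4 ± 1.89 CPM there. Day 1 means are not given, since replicate 3 of ΔNp63 day 1 had 1530847 counts and stood apart, with TSPAN18 far above the other ΔNp63 libraries.

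**Figure D4:**
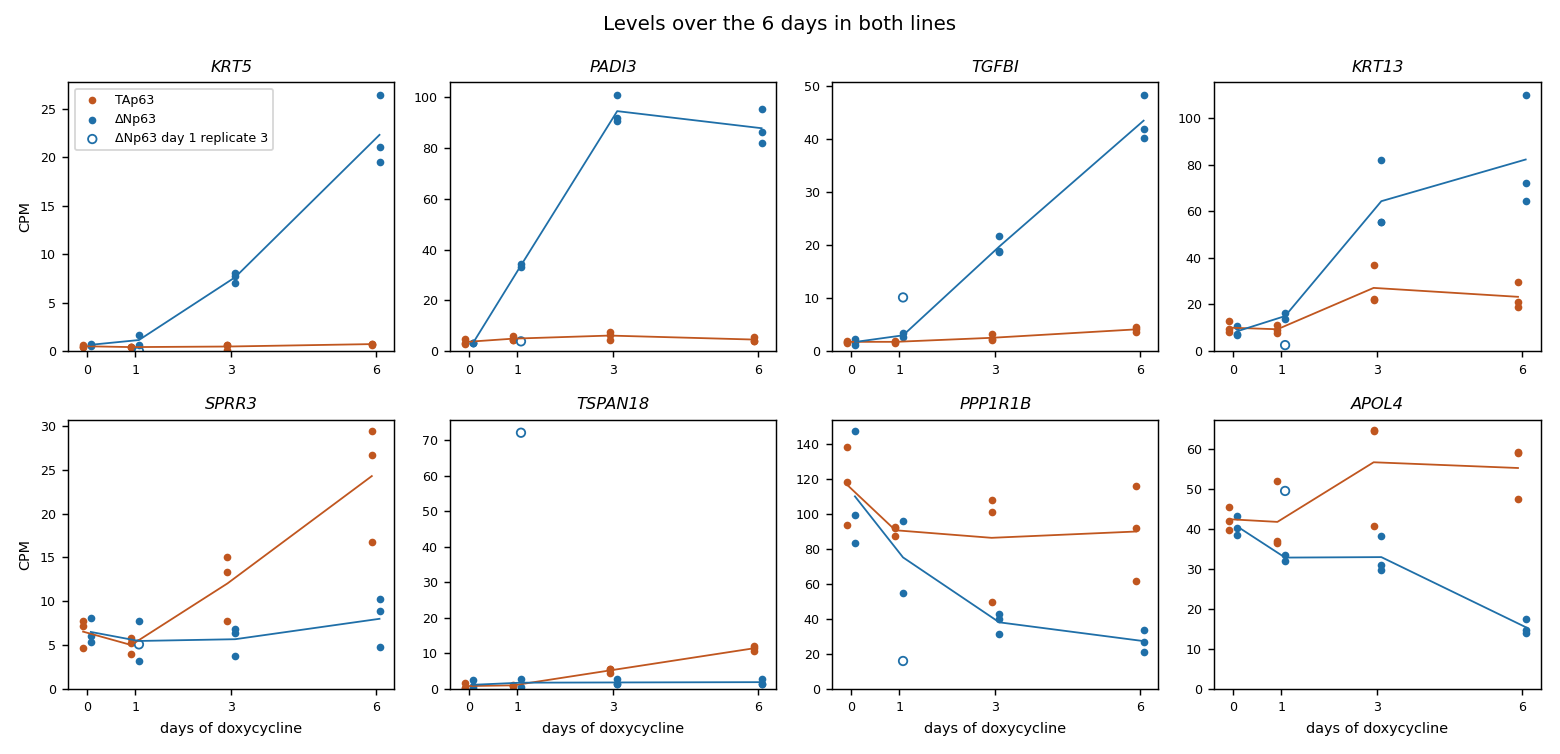
Levels of 8 genes in CPM at 0, 1, 3 and 6 days of doxycycline in the TAp63 line (orange) and the ΔNp63 line (blue); points are libraries, lines join means of 3 libraries (2 for ΔNp63 day 1, whose replicate 3 is an open circle). KRT5, TGFBI and KRT13 climb in the ΔNp63 line to day 6, PADI3 is at its level by day 3, and SPRR3 and TSPAN18 climb in the TAp63 line.

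Of the 96 named genes that were called, 17 were also called without the replicate block: KRT5, FXYD3, PADI3, TGFBI, KRT13, TRIM29, OLFML2A, CACNA1H, TNS4, LAMB1, ARHGDIB, FAM83A, SLC1A7, TCF23, APOL4, HTR3E and KLK14. Called in all 12 fits that each left out 1 library were 68 of the 96. KRT5 kept its call in all 12, as did KRT13, KRT4, PADI3, SPRR3, PPP1R1B, APOL4 and AQP1.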

How the data were processed

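The authors deposited raw counts per gene, not normalized. The submitters' processing notes name hg38 as the build, HISAT2 2.1.0 as aligner, featureCounts 1.6.1 as counter, and DESeq2 with no version. The table itself came from featureCounts 2.0.0, per the file header, which shows that paired fragments were counted over whole transcript spans without a strand option, so counts include introns, and fragments over 2 genes count for neither. Of 28278 genes, 6005 had 0 counts in all 24 libraries. TRIzol extracts went into a NEBNext Ultra kit, per the labels' protocols.

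The fit used edgeR 4.0.16 under R 4.3.3, with filterByExpr over the groups (minimum count 10), TMM, and glmQLFit and glmQLFTest with group means and the replicate number as a block, on the 12 libraries (6 residual degrees of freedom). The SE was approximated from the log2 value and the test's F (|log2| over √F). Replicate numbers come from the sample titles. Deviations from the group means correlated in all 18 same-number pairs of libraries (r 0.335 to 0.687, median 0.491; different numbers -0.634 to 0.231, median -0.35), so the numbers were taken to pair the libraries. Replicates differed beyond sampling noise. The test was tried on simulated counts with known changes. Alternatives were another normalization, DESeq2 1.42.0, no filter, no block, all 24 or 23 libraries, and each library or replicate number left out.

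Members and the 41 gene lists were chosen with earlier results of these data known. Named genes are the 15 most positive and 15 most negative calls reaching 5 CPM in a group mean, up to 5 called genes per list, and 11 set genes; 15 more, the aquaporins and the genes of opposite calls among them, were named after their values were seen. Some genes that these rules or marker lists hold are not reported here. Promoter sequences are from a RefSeq table.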

Additional observations from a re-analysis of the deposited data

Results flagged for a closer look

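The day 6 response differed between the TAp63 and ΔNp63 lines in 399 genes by edgeR's test of the difference itself (adjusted p under 0.05), and this difference is what marks each value given here. The 96 named genes among them are listed by their log2 difference of the day 6 response, TAp63 minus ΔNp63, in falling order of size. No cause was tested for any of them.

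Negative differences mark a larger rise or a smaller fall in the ΔNp63 line. The most negative were -4.63 for KRT5, -4.47 for FXYD3, -4.37 for PADI3, -3.77 for LIPF, -3.40 for TGFBI, -3.36 for LIMS2, -3.16 for KRT4 and -3.14 for OLFML2A. Next came -2.56 for CACNA1H, -2.48 for TNS4, -2.45 for SCGN, -2.31 for WNT4, -2.08 for GSTA1, -2.08 for KRT13, -2.03 for ART5 and -2.001 for ST6GALNAC2. Then followed -1.97 for CALML3-AS1, -1.96 for EDARADD, -1.85 for TRIM29, -1.71 for S100A2, -1.6 for LOX, -1.55 for KRT15, -1.27 for GCNT3 and -1.25 for ABCA1. Further values were -1.21 for FAM83A, -1.17 for ARHGDIB, -0.97 for LTBP1, -0.92 for LAMB1, -0.86 for S100A16, -0.81 for EGR1, -0.78 for ALDH3A1 and -0.77 for HAP1. Smaller ones were -0.77 for S100A10, -0.72 for CHGB, -0.72 for GRHL1, -0.70 for B2M, -0.68 for WNT7B, -0.67 for FN1, -0.60 for SDC1 and -0.59 for PKP1. The remaining genes had -0.56 for GPC1, -0.55 for FGFR3, -0.51 for ELOVL6, -0.49 for SC5D, -0.48 for BMPR2, -0.48 for STARD4 and -0.48 for PPP1R13B.

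Positive differences mark a larger rise or a smaller fall in the TAp63 line. The highest were 3.57 for TSPAN18, 3.25 for TCF23, 3.15 for SPRR2D, 2.86 for PRSS33, 2.45 for TNFRSF1A, 2.21 for SLC1A7, 2.02 for LEMD1 and 1.96 for IGFL2-AS1. After them came 1.90 for CYP2B7P, 1.77 for APOL4, 1.65 for ATP12A, 1.602 for PPP1R1B, 1.599 for SPRR3, 1.59 for FAM230I, 1.55 for SPRR2A and 1.37 for AQP2. These were followed by 1.36 for RTN4RL2, 1.33 for FAIM2, 1.32 for IL23A, 1.304 for NUPR1, 1.296 for SLC2A3, 1.29 for DUSP6, 1.25 for AQP1 and 1.19 for HEY1. Lower values were 1.10 for KLK14, 1.09 for CSRP2, 1.07 for HTR3E, 0.98 for SLC25A45, 0.96 for BBC3, 0.95 for PTGS1, 0.90 for PEX5L and 0.88 for PHLDA1. Still lower were 0.87 for CCL28, 0.86 for AQP5, 0.82 for S100P, 0.78 for AQP3, 0.73 for SH2D6, 0.70 for CLDN4, 0.67 for ISG20 and 0.62 for BMX. Below these stood 0.60 for LYZ, 0.59 for S100A4, 0.58 for ATP1B2, 0.57 for FGFR1, 0.54 for TRIB3, 0.54 for DUSP4, 0.52 for LFNG and 0.49 for ATF5. The last gene had 0.40 for CPE.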

How the results depend on the processing

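The 399 calls of the day 6 difference became 25 without the replicate block, 26 with all 24 libraries in one fit with the block, 620 with no filter on low counts (21755 genes tested), 409 with RLE normalization, 378 with library totals only, 337 with DESeq2 and 295 with 23 libraries. Leaving out 1 library or 1 replicate number gave 154 to 596 calls, the lowest without replicate 3. The 805 calls of the TAp63 line became 118 without the block and 122 with 24 libraries, and 275 to 1309 with a library or number left out; with totals only 80.6% of 757 were higher, against 69.4%. The 2534 calls of the ΔNp63 line became 676 without the block and 714 with 24 libraries, and 1576 to 2775 with a library or number left out. The 222 day 3 calls became 3 without the block, 10 with 24 libraries and 557 with no filter, and 58 to 492 with a library or number left out; with totals only 17.5% of 212 were higher, against 33.3%. The fit of 23 libraries left out replicate 3 of ΔNp63 day 1, which had 1530847 counts and is outside the day 6 comparison. That fit called 568 genes in the TAp63 line, 2221 in the ΔNp63 line and 149 in the day 3 difference. The cause was not tested, except that fewer libraries or more genes were in some fits.

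Of 96 called named genes, 17 were called without the block, 18 with 24 libraries, 80 with 23, 89 with DESeq2, 94 with totals only and 96 with RLE or no filter, and none changed direction. Calls lost without at least 1 library were those of GSTA1, STARD4, WNT4, DUSP4, CPE, ELOVL6, ATP1B2, BMPR2, S100A4, SC5D, LFNG, GPC1, FAM230I, HEY1, SLC2A3, SCGN, PTGS1, TRIB3, ATF5, EGR1, SH2D6, SPRR2D, CHGB, PRSS33, SLC25A45, WNT7B, S100A10 and LIPF. Uncalled differences that changed sign with a library or number left out reached -0.054 to 0.17 for TP63, -0.040 to 0.13 for POU2F3, -0.43 to 0.45 for NEUROD1 and -0.27 to 0.11 for CDKN1A. Depth ran from 6375963 to 20977266 counts per library, which limits the precision of low counts.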
